A study of Mus musculus with 2 samples.

Results

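Nucleoporin, importin and exportin genes were described in mouse CFU-E cells, the erythroid colony-forming unit, a committed precursor of red cells. The members were the protein-coding genes whose GENCODE M21 symbol begins with Nup, Ipo, Kpna or Kpnb and a number, together with Xpo1 to Xpo6 and Xpot. This rule found 39 of 21474 protein-coding genes in the deposited tables, of which 20 are nucleoporins, 14 importins and 5 exportins. A further symbol that fits the rule, Nup62, was not analysed here, and the pore genes listed as Nupl1 and Nupl2 fall outside it by name. The series holds 1 group of CFU-E, with 2 biological replicates of total RNA depleted of ribosomal RNA. The donor strain was C57BL/6J, male and 5 to 6 weeks old, with no treatment or engineered allele named in the labels. Each library was made from 100 ng of RNA with the ScriptSeq kit, and both carry the same donor identifier but different biosample identifiers. Technical and biological parts of the difference between the replicates cannot be told apart. With 1 group there is no contrast between conditions, and the questions the design answers are how high each gene stood and how far the replicates differed.

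Traffic between nucleus and cytoplasm runs through the nuclear pore complex, a ring of nucleoporins set in the nuclear envelope. Its Y complex and inner ring form the scaffold, phenylalanine-glycine repeat proteins fill the channel, and filaments and a basket extend from its faces. Importins carry cargo inward and exportins carry it outward, both steered by the small GTPase Ran, which is bound to GTP in the nucleus and to GDP in the cytoplasm. Erythroid precursors move transcription factors, ribosomal subunits and messenger RNA through these pores until the condensed nucleus is expelled.

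Gene levels are in TPM (a count divided by effective transcript length and scaled to the same total in each library), given for replicate 1 and then replicate 2 or as mean ± SD over n = 2. Library totals were 62576357 and 36889517 expected counts. Of all TPM, nuclear protein-coding genes held 12.4% and 7.49%. Among the 9493 protein-coding genes averaging 50 counts or more, most had the higher TPM in replicate 1, by a median log2 ratio of 0.66. All 11 erythroid markers reached 10 TPM in each library, while Kit, which marks CFU-E, had 0.42 and 0.51 TPM. Granulocyte markers were also present, with 7 of 7 reaching 10 TPM in each library and a summed level of 1189.7 and 599 TPM, against 27143 and 12499 TPM for the erythroid list. Monocyte and macrophage markers reached 1 TPM in both libraries for 4 of 5 genes, summing to 127 and 77.0 TPM, and 3 of 3 B cell markers did, summing to 34.5 and 17.5 TPM. Of the T cell and megakaryocyte lists 1 of 3 genes each did, and of the stem and early progenitor list 0 of 4. The part of other cell types in the levels below was not tested, and in a bulk sample fewer cells of a type cannot be told apart from less RNA per cell.

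Most of the transport genes were expressed. Of the 39 members, 33 reached 1 TPM in each library, against 24.0% of all protein-coding genes. The level of 10 TPM was reached in each library by 6 members, Kpnb1, Xpo1, Kpna2, Nup210, Nup85 and Nup88, against 4.84% of protein-coding genes. The members that reached 1 TPM had a median mean level of 4.56 TPM, close to the 4.41 TPM of the 5139 nuclear protein-coding genes that did so. Over all 39 members the median was 3.86 TPM. Nup37, Nup43 and Ipo8 missed 1 TPM in replicate 2 only, and Kpna7, Nup62cl and Nup210l were at 0 TPM in both libraries. The other 36 members had at least 100 counts in each library.

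**Figure D1:**
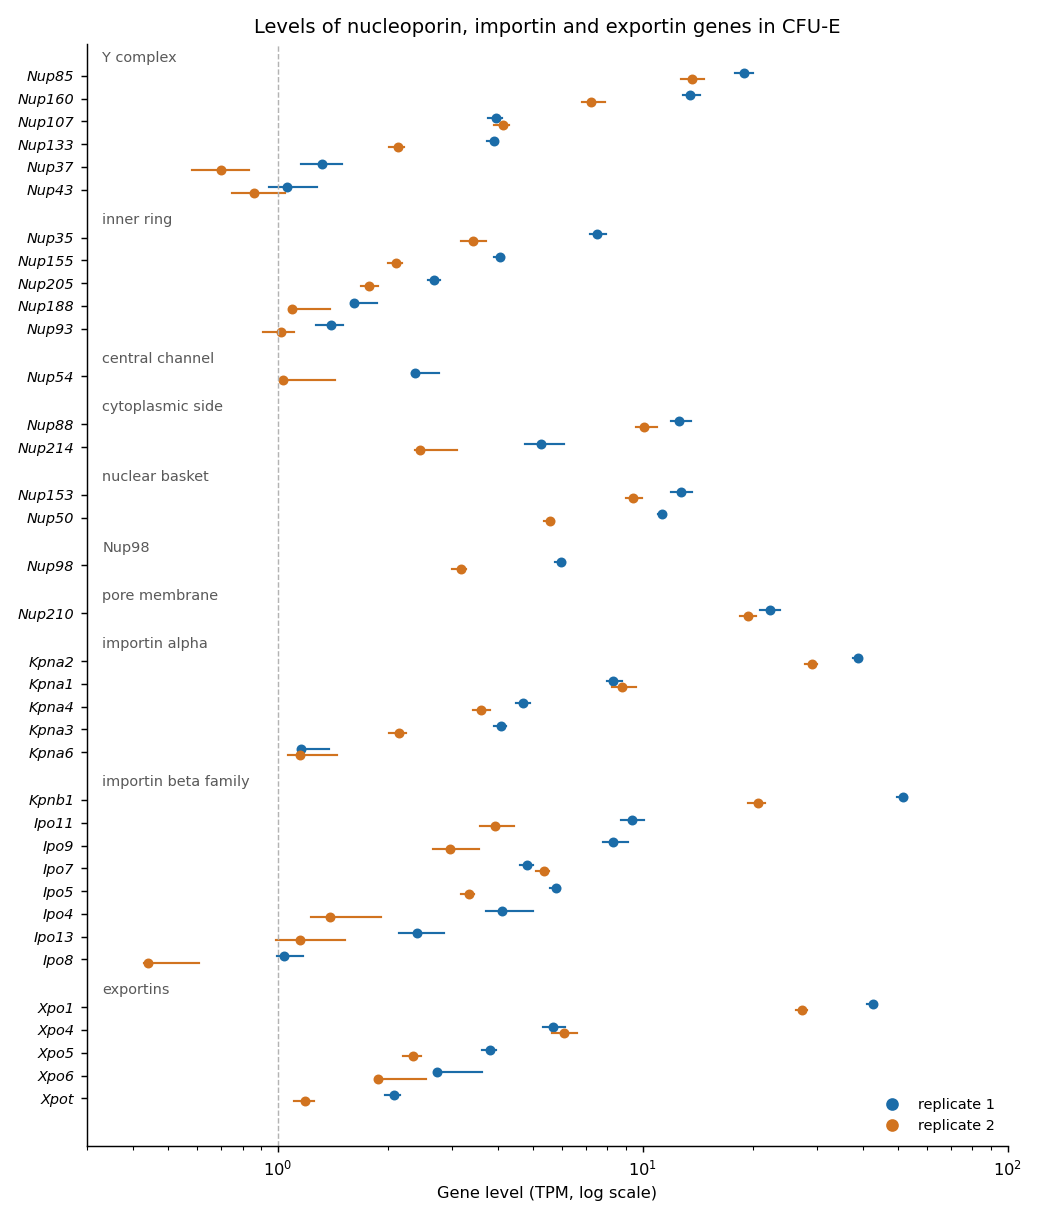
Gene level in TPM on a log axis for the 36 members above 0, grouped by role, with replicate 1 in blue and replicate 2 in orange. Bars are the deposited credibility intervals, which are centred on the posterior mean and can miss the point, and the dashed line marks 1 TPM. Kpnb1, Xpo1 and Kpna2 stand furthest right, and 32 members lie further right in replicate 1.

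The sequences shown first are those behind the transcript results below, from GENCODE M21 on mm10 (GRCm38), each read 5′ to 3′ on the coding strand. Kpna2 had a large share of its reads assigned to a transcript, Kpna2-206, that lacks exon 4 of 11 (chr11:106992603-106992691, minus strand). That exon of 89 bases is in capitals, with 20 bases of the exons on each side in lower case. In Kpna2-206 the flanking exons join directly, and the reading frame then meets a stop codon, in capitals, after 12 bases of the next exon.
Kpna2-201: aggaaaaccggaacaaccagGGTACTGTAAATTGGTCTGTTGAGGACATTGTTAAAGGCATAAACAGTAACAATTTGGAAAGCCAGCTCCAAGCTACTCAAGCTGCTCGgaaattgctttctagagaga
Kpna2-206: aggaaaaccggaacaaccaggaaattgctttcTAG
Nup210 has an annotated pair of near full-length coding transcripts that differ by 132 coding bases. These lie in exon 16 of 40 of Nup210-201 (chr6:91060604-91060735, minus strand). Those bases are in capitals below, with 20 bases on each side, and are absent from Nup210-202.
Nup210-201: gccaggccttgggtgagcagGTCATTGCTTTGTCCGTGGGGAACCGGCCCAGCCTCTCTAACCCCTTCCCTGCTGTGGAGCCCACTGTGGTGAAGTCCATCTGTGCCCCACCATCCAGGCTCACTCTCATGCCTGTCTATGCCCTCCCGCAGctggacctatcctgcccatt

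Among the importin alpha genes, whose proteins bind the classical nuclear localization signal of a cargo and hand it to importin beta, Kpna2 stood highest. Kpna2 (chromosome 11, 106988629 to 106999541) had 38.8 and 29.1 TPM, from 9997 and 5595 expected counts. It held 68.1% of importin alpha TPM in replicate 1 and 65.0% in replicate 2. Its counts are fractional, which means that some reads were shared with other loci. Kpna1 came next, at 8.26 and 8.77 TPM. Kpna4 had 4.71 and 3.60 TPM, and its close paralog Kpna3 had 4.08 and 2.15 TPM. The log2 ratio of Kpna3 to Kpna4 was -0.48 ± 0.38, so Kpna3 was lower in both libraries by an amount close to the spread. Kpna6 was low, at 1.16 and 1.15 TPM. Kpna7, which in mouse is known from oocytes and early embryos, had 0 counts in both libraries, and 3 counts per library would be 0.0165 and 0.0172 TPM, counting error only; the deposited credibility intervals reach 0.118 and 0.115 TPM. Kpna2 exceeded Kpna1 4.70-fold in replicate 1 and 3.32-fold in replicate 2. Without the length correction Kpna2 held less, 43.4% and 37.1% of importin alpha counts, and its effective length was shorter, 1575 and 1273 bases against 3600 and 3466 for Kpna1.

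In the importin beta family, Kpnb1 led. Kpnb1, the importin beta that docks the importin alpha and cargo complex at the pore (chromosome 11, 97159714 to 97187881), had 51.8 and 20.8 TPM. The log2 ratio of these levels was 1.32, against a median of 0.66 for the 9493 protein-coding genes averaging 50 counts or more. The ratio was 0.59 on a scale in which nuclear protein-coding genes have the same total in each library. Its counts, 16928 and 10219, had a log2 ratio of 0.02 after scaling for depth, and its deposited effective length, an average over its transcripts, was 2001 bases in replicate 1 and 3264 in replicate 2. Ipo11, which in human cells imports ubiquitin-conjugating enzymes, had 9.32 and 3.93 TPM. Ipo9, an importer of histones and actin, had 8.26 and 2.97 TPM. Their deposited effective lengths were also shorter in replicate 1, at 1744 and 2331 bases for Ipo11 and 1620 and 2791 for Ipo9, and their count log2 ratios were 0.23 and 0.10. Ipo7 and Ipo5, which carry ribosomal proteins and histones, each have 1 annotated transcript in the tables, so no such mix affects them. Ipo7 had 4.83 and 5.36 TPM and Ipo5 had 5.78 and 3.34 TPM. Ipo8, the paralog of Ipo7, was the lowest of the family, at 1.04 and 0.44 TPM, and Ipo7 exceeded it 4.64-fold and 12.2-fold. Ipo4, another carrier of histones and ribosomal proteins, had 4.12 and 1.39 TPM. Ipo13, which also works as an exporter, had 2.40 and 1.15 TPM.

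Among the exportins, Xpo1 stood far above the others. Xpo1, also named CRM1, exports proteins with a leucine-rich export signal, and in human erythroblasts it carries a heat shock chaperone out of the nucleus. The gene (chromosome 11, 23256041 to 23298249) had 42.7 and 27.4 TPM and the highest count of any member, 23449 and 14881. Xpo1 exceeded Xpo5 11.2-fold and 11.7-fold, a log2 ratio of 3.51 ± 0.04. Xpo5, the carrier of microRNA precursors, had 3.81 and 2.35 TPM. Xpo4, which exports a translation factor, had 5.68 and 6.09 TPM. Xpo6, the exporter of actin with profilin, had 2.73 and 1.88 TPM, and Xpot, the exporter of transfer RNA, had 2.08 and 1.19 TPM. The order of the exportins by gene TPM was the same in both libraries, with Xpo1 first and Xpot last. Over protein-coding transcripts Xpo1 was still first, but Xpo5 stood above Xpo4, at 2.54 and 1.46 TPM, and Xpo6 was last, at 0.13 and 0.22 TPM.

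The 3 highest members, Kpnb1 at 36.3 ± 21.9 TPM, Xpo1 at 35.0 ± 10.8 and Kpna2 at 34.0 ± 6.88, did not differ from each other beyond their spread. Together they held 39.9% of member TPM in replicate 1 and 36.4% in replicate 2. Their order changed between the libraries, with Kpnb1 first in replicate 1 and Kpna2 first in replicate 2. Nup210 followed at 20.8 ± 2.04 TPM.

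Nup210 was the highest nucleoporin of the rule. It encodes a large pore membrane glycoprotein (chromosome 6, 91013068 to 91116829) and had 22.3 and 19.4 TPM, from 16991 and 10502 counts. Its paralog Nup210l, known from testis, had 1 count in replicate 1 and 0 in replicate 2, both under a limit of 3 counts, which corresponds to 0.0034 and 0.0036 TPM. Nup62cl, a relative of the channel protein Nup62, had 0 counts in both libraries, where 3 counts would be 0.029 and 0.0295 TPM and the deposited credibility intervals reach 0.207 and 0.187 TPM.

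Members of the Y complex, the outer scaffold of the pore, were spread over a wide range although the complex holds its subunits in fixed proportion. Nup85 (chromosome 11, 115564434 to 115583985) led with 18.9 and 13.6 TPM. Nup160 had 13.5 and 7.21 TPM. Nup107 had 3.97 and 4.14 TPM, and Nup133 had 3.90 and 2.13 TPM. The small subunits Nup37 and Nup43 were lowest, at 1.32 and 0.70 TPM and at 1.06 and 0.86 TPM. Nup160 exceeded Nup133 3.46-fold and 3.39-fold. Counted over their protein-coding transcripts alone, the 4 larger subunits came much closer together. Their means were 5.27 ± 1.87 TPM for Nup160, 4.06 ± 0.12 for Nup107, 3.99 ± 0.30 for Nup85 and 3.02 ± 1.25 for Nup133. These SDs carry the shift in TPM between the libraries. After scaling for depth, the log2 ratios of gene counts were 0.14 for Nup160, -0.67 for Nup107, -0.27 for Nup85 and 0.26 for Nup133.

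The inner ring anchors the scaffold to the membrane and the channel. All 5 of its members lay between 1.21 and 5.46 TPM on average, against 0.96 to 16.3 TPM for the Y complex. Over protein-coding transcripts the ranges were similar, 1.21 to 4.95 TPM for the inner ring and 0.92 to 5.27 TPM for the Y complex. Nup35, which touches the pore membrane, had 7.50 and 3.42 TPM, and Nup155 had 4.07 and 2.11 TPM. Nup93, a linker of the ring, had 1.40 and 1.02 TPM. The large paralogs Nup205 and Nup188 had 2.68 and 1.78 TPM and 1.62 and 1.09 TPM, and Nup205 was higher by a log2 ratio of 0.72 ± 0.01, 1.65-fold and 1.63-fold. Nup205 and Nup188 each had all their reads in 1 transcript.

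Nucleoporins of the channel and of the faces varied more. Nup54, a repeat protein of the central channel, had 2.38 and 1.03 TPM. Nup98, whose precursor is cleaved into a repeat protein and a subunit of the Y complex, had 5.97 and 3.17 TPM. On the cytoplasmic side, Nup88 (chromosome 11, 70943058 to 70969973) had 12.6 and 10.1 TPM, and its partner Nup214, a docking site of Xpo1, had 5.27 and 2.45 TPM. Nup214 was below Nup88 by a log2 ratio of -1.65 ± 0.55, but by only -0.41 ± 0.19 over protein-coding transcripts. The nuclear basket proteins Nup153 and Nup50 had 12.7 and 9.39 TPM and 11.3 and 5.58 TPM. Nup153 was 1.13-fold and 1.68-fold higher than Nup50 by gene, and 0.754-fold and 1.12-fold over protein-coding transcripts, so their order was not settled.

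Part of the TPM of these genes lay in transcripts annotated as non-coding, with a median share close to that of all protein-coding genes at 1 TPM. Over all members, transcripts of the class protein_coding held 62.2% and 62.1% of TPM but 89.3% and 87.8% of expected counts. Retained-intron transcripts held 21.1% and 21.01% of TPM but 4.38% and 5.28% of counts. Transcripts annotated as targets of nonsense-mediated decay held 5.35% and 6.14% of TPM, and other processed transcripts 11.4% and 10.8%. These pooled shares weigh the highest genes most, and no pooled share over all protein-coding genes was computed. TPM divides by effective length, so a short annotated transcript receives a high TPM from few reads. Of the 33 members that reached 1 TPM, 8 had under 50% of their TPM in protein-coding transcripts in both libraries, against 12.8% of protein-coding genes at that level. These were Xpo6, Ipo4, Kpna2, Nup85, Xpo4, Ipo13, Nup88 and Ipo11. By counts, 2 of the 33 remained under 50%, Xpo6 and Ipo4. The median protein-coding share of a member was 88.8% of TPM and 96.9% of counts, and that of all protein-coding genes at 1 TPM was 90.6% and 96.5%.

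**Figure D2:**
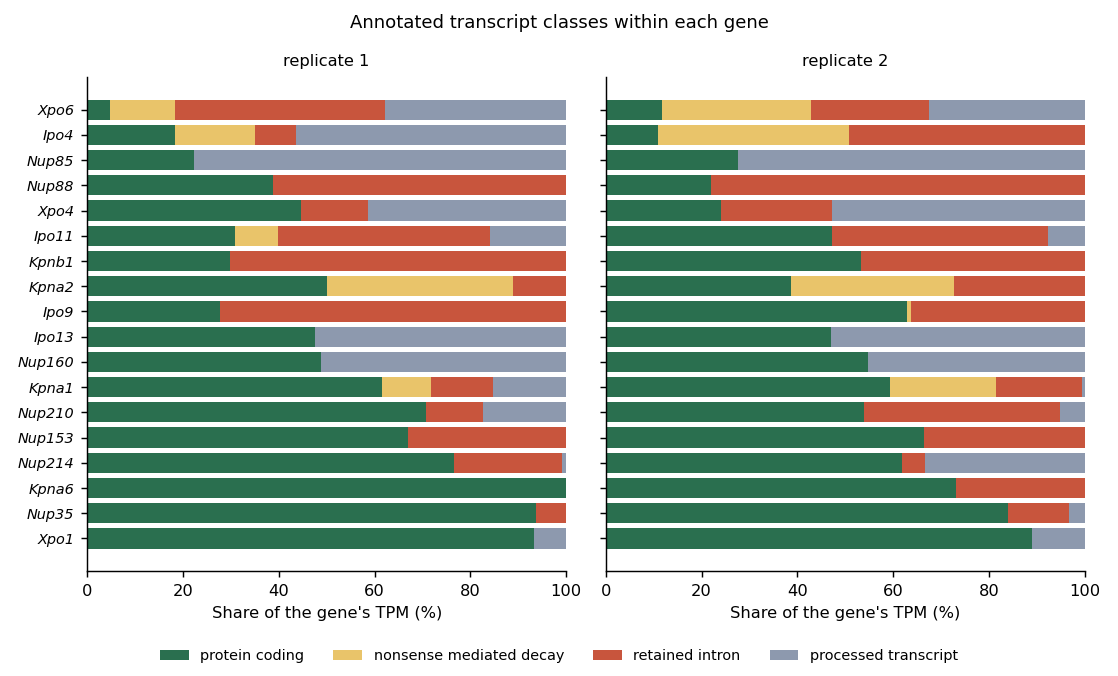
Share of each gene's TPM, in percent, held by each annotated transcript class in replicate 1 (left) and replicate 2 (right), for the members reaching 1 TPM in each library whose protein-coding share was under 99%. Genes run down the page by rising mean protein-coding share of the 2 libraries, with Xpo6 at the top, at 4.76% and 11.8%, and Xpo1 at the bottom, at 93.3% and 89.0%.

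Kpna2 split most of its reads between coding and decay-annotated transcripts. A short retained-intron transcript, Kpna2-207 of 534 bases, also held 11.05% and 27.3% of the gene's TPM, from 219 and 422 counts. Kpna2-201, which encodes 529 amino acids, had 5762 and 2559 counts and 49.6% and 31.1% of the gene's TPM. Kpna2-206, which skips the exon of 89 bases printed above and is annotated as a target of nonsense-mediated decay, had 4008 and 2489 counts and 39.0% and 34.1% of TPM. The lost exon is not a multiple of 3 bases, and the remaining reading frame has 75 codons before the stop. The pair was therefore close to even in replicate 2, and Kpna2-206 was the lower of the pair in replicate 1. Unlike most non-coding transcripts of the members, Kpna2-206 is nearly as long as the coding one, 1843 against 2054 bases, so its share by counts was as large, 40.1% and 44.5%. Both transcripts cover most of the same sequence, the tables do not show how many reads crossed the junction, and how firmly the exon skip is supported was not tested.

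Kpnb1 had most of its reads, but not most of its TPM, in its full-length transcript. Kpnb1-201, of 5894 bases, had 14349 and 9512 counts, 84.8% and 93.1% of the gene, and 29.9% and 53.2% of TPM. Kpnb1-202, a retained-intron transcript of 643 bases, had 2227 and 571 counts but 62.6% and 39.6% of TPM. Of its bases, 194 lie outside the exons of coding transcripts and the other 449 are shared with them. Over protein-coding transcripts alone Kpnb1 had 15.5 and 11.0 TPM, Kpna2 19.4 and 11.2 TPM and Xpo1 39.8 and 24.4 TPM. On that scale Xpo1 stood first in both libraries, 2.57-fold and 2.21-fold above Kpnb1, while Kpnb1 and Kpna2 differed by a log2 ratio of -0.18 ± 0.21. That level of Xpo1 includes 8.22 and 3.05 TPM of Xpo1-207, a short coding transcript of 698 bases, from 638 and 237 counts.

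**Figure D3:**
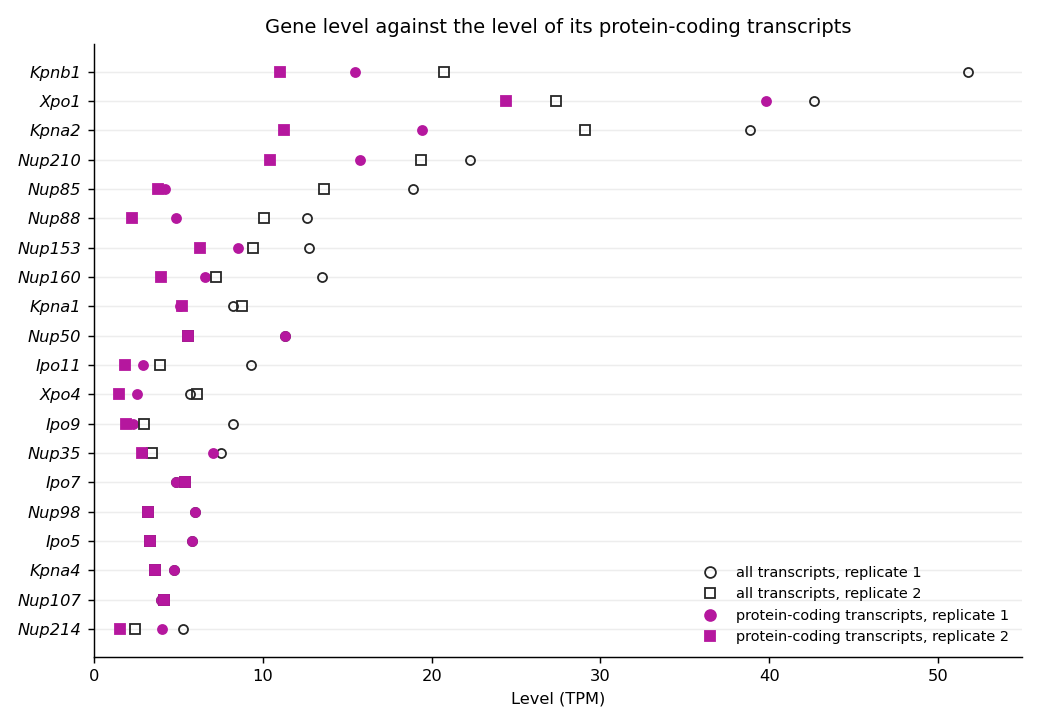
Level in TPM of the 20 members of highest mean level, over all transcripts (open symbols) and over protein-coding transcripts alone (filled symbols), with circles for replicate 1 and squares for replicate 2. Kpnb1, Kpna2, Nup85 and Nup88 lose much of their level, Xpo1 little, and genes such as Nup50 and Ipo5, which have 1 annotated transcript, none.

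Xpo1 was almost wholly coding. Its protein-coding transcripts made up 93.3% and 89.0% of its TPM, and the longest of them, Xpo1-203, Xpo1-201 and Xpo1-204, encode the same protein and differ in their untranslated regions. Xpo1-203 had 33.0% and 36.0% and Xpo1-201 had 31.1% and 28.4%. The short coding Xpo1-207 had 19.3% and 11.1% of TPM but 2.72% and 1.59% of counts. Nup210 reads were assigned mainly to Nup210-201, which encodes 1886 amino acids and had 12624 and 5562 counts, and to Nup210-202. The latter lacks 44 of these amino acids in frame and had 3074 and 3287 counts, 18.1% and 31.3% of Nup210 counts. Another coding transcript, Nup210-206, had 845 and 898 counts, 5.0% and 8.6%. Retained-intron transcripts held 11.8% and 40.8% of Nup210 TPM. The largest in replicate 2, Nup210-209 of 751 bases, had 6.62% and 26.35% of TPM from 127 and 438 counts. Over protein-coding transcripts Nup210 had 15.76 and 10.45 TPM. Nup210-201 and Nup210-202 share most of their bases, and how firmly the split between them is supported was not tested.

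By TPM, Nup88, Nup85, Xpo6 and Ipo4 were led in both libraries by a transcript that is not coding, for Ipo4 a different one in each. In Nup88 the retained-intron transcript Nup88-210, of 649 bases, had 37.7% and 47.0% of TPM from 331 and 333 counts. The assignment of Nup88 reads moved between the libraries. The coding Nup88-202 had 916 and 72.9 counts, Nup88-203 had 834 and 111, and Nup88-201 had 0 and 576. The retained-intron Nup88-212 had 0 and 709 counts. By counts Nup88-202 led in replicate 1 and Nup88-212 in replicate 2, and coding transcripts together held 60.5% and 35.1%. These transcripts share most of their bases, and the gene as a whole had 2891 and 2168 counts, a log2 ratio of -0.29 after scaling for depth. In Nup85 the processed transcript Nup85-206 had 27.5% and 27.4% of TPM, against 21.9% and 21.97% for the coding Nup85-201. By counts Nup85-201 led, with 59.4% and 55.2%.

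Xpo6 and Ipo4 had low coding shares by counts as well as by TPM. Xpo6-218, a processed transcript of 5028 bases, had 811 and 448 counts, 50.8% and 47.7% of the gene, and the retained-intron Xpo6-211, of 4263 bases, had 401 and 274 counts. The coding Xpo6-213 had 94.8 and 142 counts, only 5.94% and 15.1%. Xpo6 over protein-coding transcripts was therefore at 0.13 and 0.22 TPM. Only 1636 bases of Xpo6-218 and 1886 of Xpo6-211 lie outside the exons of coding transcripts. How firmly this split of Xpo6 reads is supported was not tested. Ipo4 had 44.0% and 19.6% of its counts in the coding Ipo4-201. The processed transcript Ipo4-212, of 422 bases, held 56.4% of Ipo4 TPM in replicate 1 from 76.3 counts and 0 in replicate 2. In replicate 2 the decay-annotated Ipo4-209 led, with 26.6% of TPM and 42.1% of counts, against 0 in replicate 1. Another 44.4% and 26.4% of Ipo4 counts lay in a transcript that GENCODE M21 places in a separate, overlapping gene, Gm49378. The reads of Ipo4 therefore cannot be fully told apart from those of its neighbour.

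The replicates differed little for these genes once scaled by TMM (trimmed mean of M values, a depth correction from the bulk of genes). Over the 36 members averaging 50 counts or more, the median log2 ratio of replicate 1 over replicate 2 was 0.09, against 0.02 for 9493 protein-coding genes, and 21 were positive and 15 negative. No member was 2-fold apart in either direction, 0 of 36, against 9.78% of protein-coding genes higher in replicate 1 and 8.99% higher in replicate 2. That share depends on depth, and most members are well covered. Among genes averaging 1000 counts or more, 0 of 28 members were 2-fold apart, against 1.47% of 3396 protein-coding genes, and the median absolute log2 ratio was 0.19 for the members and 0.20 for those genes. With 1 library on each side no test was made.

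**Figure D4:**
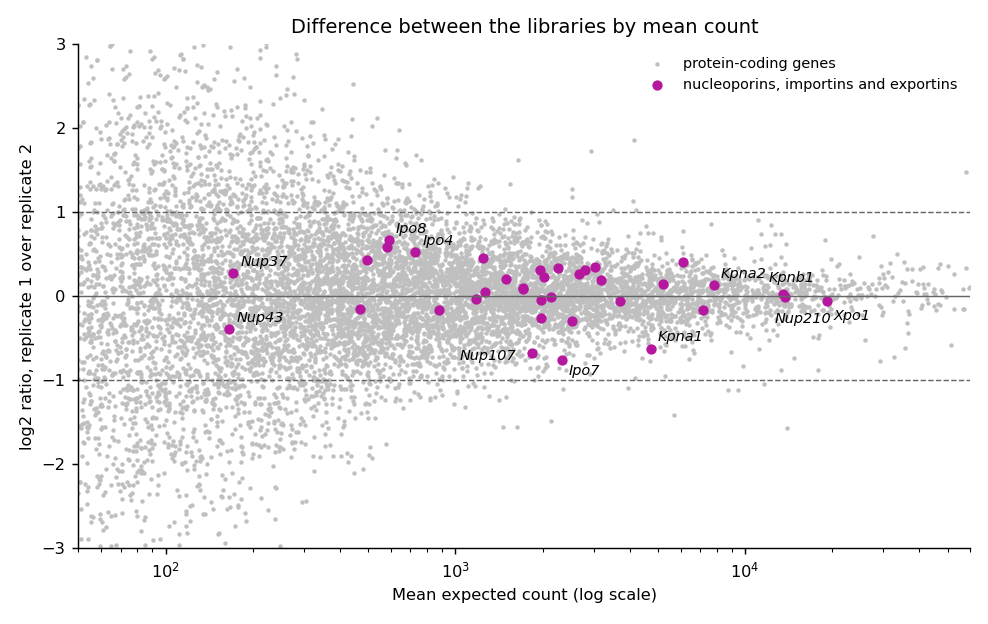
Log2 ratio of replicate 1 over replicate 2 after TMM scaling, against mean expected count on a log axis, for members (purple) and all protein-coding genes averaging 50 counts or more (grey), of which 273 fall outside the axes. Dashed lines mark a 2-fold difference, and the 36 members lie between -0.76 and 0.67.

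The members furthest toward replicate 2 were Ipo7, with 2285 and 2372 counts and a log2 ratio of -0.76, Nup107 at -0.67 and Kpna1 at -0.63. Those furthest toward replicate 1 were Ipo8 at 0.67, Nup54 at 0.58 and Ipo4 at 0.52. Of the 28 members averaging 1000 counts or more, 24 lay between the 10th and 90th percentile of protein-coding genes at that depth, -0.40 to 0.44. The 4 outside were Ipo7, Nup107 and Kpna1 below and Nup35, at 0.45, above. By TPM the picture was shifted, with 32 members higher in replicate 1 and 4 higher in replicate 2. The median log2 ratio of TPM was 0.74, near the 0.66 of the 9493 protein-coding genes averaging 50 counts or more. As a share of nuclear protein-coding counts the members took 0.536% in replicate 1 and 0.548% in replicate 2.

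Genes that work with these proteins but fall outside the rule were mostly expressed too. Of 14 other pore proteins, 12 reached 1 TPM in each library and 3 reached 10, and their median was 3.08 TPM. The highest were Tpr, the main basket protein, at 38.0 and 22.7 TPM, Ranbp2, the cytoplasmic filament protein, at 20.3 and 13.3 TPM, and Ahctf1, which seeds pore assembly on chromatin, at 20.2 and 13.2 TPM. Of 7 genes of the Ran cycle, 5 reached 1 TPM in each library and 2 reached 10, Ran at 20.4 and 15.5 TPM and its GTPase activator Rangap1 at 18.6 and 13.8 TPM. Ranbp1, which helps release Ran from transport receptors in the cytoplasm, had 17.8 and 6.06 TPM, and Nutf2, the importer of Ran, had 1.06 and 0.66 TPM. Of 12 other transport receptors, 9 reached 1 TPM in each library and 0 reached 10. The highest of them by gene TPM was Cse1l, which returns importin alpha to the cytoplasm, at 19.3 and 9.49 TPM. Over protein-coding transcripts it had 6.0 and 4.13 TPM and stood below Nxf1, the main messenger RNA export receptor, at 9.9 and 5.72 TPM. Of 13 messenger RNA export genes found, 8 reached 1 TPM in each library, and the highest by gene TPM were Alyref, an adaptor of the export receptor, at 19.0 and 17.8 TPM and Thoc2, a scaffold of the THO complex, at 20.2 and 15.7 TPM. Over protein-coding transcripts Alyref had 2.87 and 4.27 TPM and Thoc2 13.0 and 8.74 TPM.

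The promoters of the 3 highest members, Kpna2, Kpnb1 and Xpo1, are shown for the short motifs they share, a property the rule did not use. RefSeq promoter windows on GRCm38.p6, from 250 bases before to 50 after the start of a gene, were matched for 31 members in 36 windows. Below, matches to the CCAAT box and to the GC box (GGGCGG, or CCGCCC on the other strand) are in capitals.
Kpna2 promoter, chr11:106999476-106999775, minus strand: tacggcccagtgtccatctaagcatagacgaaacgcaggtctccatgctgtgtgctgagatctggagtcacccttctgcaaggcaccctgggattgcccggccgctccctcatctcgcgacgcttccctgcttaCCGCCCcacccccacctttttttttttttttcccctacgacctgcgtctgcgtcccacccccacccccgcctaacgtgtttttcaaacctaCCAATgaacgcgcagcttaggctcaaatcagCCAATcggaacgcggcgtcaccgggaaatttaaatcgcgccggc
Kpnb1 promoter, chr11:97187843-97188142, minus strand: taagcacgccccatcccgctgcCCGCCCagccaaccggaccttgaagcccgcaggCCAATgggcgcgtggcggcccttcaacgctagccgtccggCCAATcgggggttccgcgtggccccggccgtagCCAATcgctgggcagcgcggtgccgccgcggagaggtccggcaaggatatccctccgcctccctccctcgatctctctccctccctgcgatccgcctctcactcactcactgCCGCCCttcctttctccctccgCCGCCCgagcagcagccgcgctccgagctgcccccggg
Xpo1 promoter, chr11:23255791-23256090, plus strand: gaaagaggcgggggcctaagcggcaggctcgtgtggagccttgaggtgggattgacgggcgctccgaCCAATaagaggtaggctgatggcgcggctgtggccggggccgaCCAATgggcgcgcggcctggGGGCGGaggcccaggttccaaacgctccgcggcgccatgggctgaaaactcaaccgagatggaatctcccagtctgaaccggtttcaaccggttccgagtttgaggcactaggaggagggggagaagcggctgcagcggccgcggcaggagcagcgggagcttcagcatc
The Kpnb1 window holds 3 CCAAT matches, and the Kpna2 and Xpo1 windows hold 2 each, all in the orientation printed. Over both strands, CCAAT or its complement ATTGG occurred in 20 of 36 member windows, 55.6%, against 37.4% of 32851 promoters in the table. The GC box occurred in 66.7% of member windows against 35.7% of promoters. Member windows were also richer in G and C. The median content was 64.3% over 31 members, each averaged over its windows, against 52.7% over the 32851 promoters. The E-box CACGTG was in 16.7% of member windows against 7.15%, and the core GCGCATGC of the factor NRF1 in 8.33% against 2.71%. The GATA site AGATAAG was in 2.78% against 3.04%, the TATA box TATAAA in 11.1% against 13.6%, and the E2F site TTTGGCGC in 0 of 36 against 0.51%, each on both strands and with overlaps between motifs kept. Base composition differs between these windows, its part in the motif shares was not tested, and a match is a run of letters and not a bound site.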

How the data were processed

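Total RNA libraries of 2 replicates of CFU-E were analysed from a gene table and a transcript table each. Per the deposited notes these are on mm10 with GENCODE M4. No source used here names the aligner, the quantifier or the use of strand. The authors deposited expected counts (estimates in which a read that fits several places is divided among them), TPM, posterior mean TPM with credibility bounds, and the percent of a gene's TPM in each transcript. The labels give a size range of 209 to 891 for replicate 1 and 186 to 747 for the other, with no unit.

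Symbols, transcript classes, coordinates and transcript sequences came from GENCODE M21 on the same assembly by Ensembl identifier, and 42462 of 43346 gene rows matched. Rows with other names held 0 and 25 counts and were left out. Expected counts were rounded for TMM (edgeR 4.0.16) and DESeq2 1.42.0 in R 4.3.3, using the 10943 genes with 10 or more counts in each library, which gave effective sizes of 61435719 and 37574412. Log2 ratios used a prior count of 0.5, and the script was tested on simulated data. Python 3.11.15 with pandas 2.3.3 and matplotlib 3.10.9 did the rest. Limits for 0 counts use 3 counts. No test was made, since there is 1 group. Members, roles and lists were chosen with earlier results of these data known. Any member may be named, and of the related lists the 4 highest and those under 1 TPM. Transcripts are named where the leading one held under 60% of a gene, moved by over 15 points or is not coding and then with other transcripts of the same gene. Ddx39a was not found by symbol.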

Additional observations from a re-analysis of the deposited data

How the results depend on the processing

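The number of members reaching 1 TPM in each library was 33, and it ranged from 29 to 36 under posterior mean TPM, a minimum of 0.5, TPM rescaled to nuclear protein-coding genes, protein-coding transcripts alone and each library alone; a minimum of 5 TPM left 11. The count at 10 TPM was 6 and became 32 on the rescaled TPM, where the median level was 37.6 in place of 3.86 TPM. With replicate 1 left out that median was 2.45, and with replicate 2 left out 4.12. The ratio of deposited TPM gave a median log2 ratio of 0.74 and 10 members at least 2-fold apart, against 0.09 and 0 after TMM; DESeq2 size factors, TMM over nuclear protein-coding genes and the ratio of rescaled TPM also gave 0. Without a filter on low counts 1 member passed, Nup210l, from 1 count. Kpna2 held 66.5% of importin alpha TPM, but 40.2% by CPM (counts scaled by the library total) and 52.6% over protein-coding transcripts. The median coding share was 88.8% of TPM and 96.9% of counts. Summed CPM was 519 for exportins, 497 for the importin beta family, 389 for importin alpha, 278 for the pore membrane, 265 for the basket, 245 for the Y complex, 161 for the inner ring, 96.8 for the cytoplasmic side, 54.9 for Nup98, 11.2 for the central channel and 0.008 for the paralogs, which had 0.095 by posterior mean TPM. The coding share by counts, levels over protein-coding transcripts and the ratio of rescaled TPM were alternatives chosen after seeing the data. Group differences, replicate tests and a pairing of samples are outside a design of 1 group; levels of genes with several short transcripts are limited by how reads were assigned to them.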
